A study of Mus musculus with 6 samples.

Results

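The 7 genes described here clear glutamate from the extracellular space, turn it into glutamine and carry glutamine across the plasma membrane. They are the rows named Slc1a1, Slc1a2, Slc1a3, Glul, Slc38a1, Slc38a2 and Slc38a3, 7 of the 21959 genes in the deposited table, and they were chosen by name and not by a measured value. The libraries are bulk RNA sequencing libraries of mouse brain tissue. The design text places the study in the paraventricular thalamus, a midline thalamic nucleus, while the tissue label of all 6 libraries reads brain. The CCI group held 3 libraries (replicates 1, 2 and 3) from wild-type mice with chronic constriction injury, a neuropathic pain model made by tying loose ligatures around a peripheral nerve. The control group held 3 libraries (replicates 4, 5 and 6) from wild-type mice with no treatment, so the control carried no sham operation by its labels. Age, sex, strain and the time after injury are not given in the sources used here. A figure of 30 mice per group stands in the design text, without their division among libraries. The libraries may therefore be pools, and the p-values below reflect library-to-library spread, part of which may be technical.

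Glutamate released at excitatory synapses is removed from the cleft by sodium-driven transporters of the SLC1 family, most of it by astrocytes. Astrocytes join the captured glutamate to ammonia with glutamine synthetase, release the glutamine through the SLC38 carrier SNAT3, and neurons take it up again through SNAT1 and SNAT2 and turn it back into glutamate. The loop is known as the glutamate-glutamine cycle, and the comparison of CCI with control asks which of its transcripts differed in abundance.

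In CCI, Slc1a1, which encodes the mainly neuronal transporter EAAC1, fell to 0.519 of its control level, and Slc38a3, which encodes the astrocytic glutamine carrier SNAT3, rose 1.59-fold. The abundant astrocytic members did not pass the test. Slc1a2 had a log2 fold change (CCI over control) of -0.08, Slc1a3 of -0.38 and Glul of -0.02. All 7 genes passed the filter on low counts, and with edgeR's quasi-likelihood test and Benjamini-Hochberg adjustment over 14259 genes, 1 member was higher, 1 was lower and 5 did not pass an adjusted p of 0.05. Of all tested genes 52.3% passed, 27.0% higher and 25.3% lower in CCI, so passing is common in this comparison. The members' median log2 fold change was -0.02, beside 0.06 for all tested genes.

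The 2 members that passed and the nearest to passing, Slc38a2, lie on different chromosomes of the GRCm39 assembly used for the table. Slc1a1 (ENSMUSG00000024935) occupies chromosome 19 from 28812449 to 28891360 on the plus strand, Slc38a2 (ENSMUSG00000022462) chromosome 15 from 96585273 to 96597611 on the minus strand, and Slc38a3 (ENSMUSG00000010064) chromosome 9 from 107527833 to 107546729 on the minus strand. Slc38a1 (ENSMUSG00000023169), on the minus strand of chromosome 15 from 96469299 to 96540794, is the neighbour of Slc38a2, with a gap of 44478 bp and 0 genes of the table between them. The promoters of Slc1a1 and Slc38a2 are shown because these genes moved apart most among the members with a usable entry. They are RefSeq sequences of GRCm38.p6, of which 5 of the 7 members had an entry, and each is limited to the bases upstream of both the RefSeq and the GENCODE M21 start. Slc1a1 is chr19:28834885-28835048 on the plus strand and Slc38a2 is chr15:96699731-96699978 on the minus strand, written 5′ to 3′ with capitals marking the GC box (GGGCGG or its reverse complement CCGCCC, the core letters bound by Sp1):
Slc1a1: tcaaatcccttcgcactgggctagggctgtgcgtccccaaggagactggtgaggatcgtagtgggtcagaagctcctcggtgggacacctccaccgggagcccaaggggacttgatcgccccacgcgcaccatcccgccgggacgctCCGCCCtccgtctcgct
Slc38a2: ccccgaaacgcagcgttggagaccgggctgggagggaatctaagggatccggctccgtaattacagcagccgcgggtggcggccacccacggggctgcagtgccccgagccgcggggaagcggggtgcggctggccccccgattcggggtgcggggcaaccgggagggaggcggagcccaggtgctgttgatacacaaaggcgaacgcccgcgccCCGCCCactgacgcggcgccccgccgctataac

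Both windows are rich in G and C. The Slc1a1 window of 164 bases is 66.5% G and C with 14 CpG, against medians of 51.2% and 3 CpG over all promoter windows of that length. The Slc38a2 window of 248 bases is 72.2% G and C with 30 CpG, against medians of 52.4% and 6. Each holds 1 GC box on either strand, which 18.6% of all windows of the first length and 32.5% of the second also hold. Neither holds CCAAT or its complement ATTGG, which 22.0% and 33.7% of all windows hold. Letter matches describe these windows, and nothing in the libraries measured their use.

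The deposited counts summed to between 7989139 and 10529886 in CCI libraries and between 12337448 and 15438268 in control libraries. Control replicate 5 stood apart from the other controls, with a Pearson correlation on log2(FPKM + 1) of 0.973 and 0.976 with replicates 4 and 6, which correlated at 0.995. Among the CCI libraries replicate 3 stood apart, by less, with 0.990 and 0.989 with replicates 1 and 2, which correlated at 0.995. It had the lowest summed level of paraventricular thalamus markers (963 CPM, against 1521 and 1552 CPM in the other CCI libraries) and the highest of hippocampus and cortex markers (189 CPM, against 139 and 141 CPM). Of the latter, Neurod6 alone had 57.6 CPM in CCI replicate 3, against 4.21 and 3.47 CPM in CCI replicates 1 and 2. That gap was larger than the gap between the sums. Most markers of the nucleus, of hippocampus and cortex and of oligodendrocytes moved with the groups, and those of other cell types did so less evenly. Of 6 paraventricular thalamus markers 5 fell in CCI and none rose (summed levels of 963 to 1552 CPM in CCI, against 3683 to 6491 CPM in control). Of 6 hippocampus and cortex markers 5 rose and none fell (139 to 189 CPM in CCI, against 61.8 to 79.7 CPM in control). Prox1 alone held 75.9 to 104 CPM of that sum in CCI, against 38.8 to 47.1 CPM in control. Neurod6, Tbr1 and Fezf2 were at low levels, with control means of 1.91, 0.747 and 0.347 CPM. Of 6 oligodendrocyte markers 4 rose and none fell (16751 to 22131 CPM in CCI, against 6404 to 13204 CPM in control). Of 7 neuron markers 1 rose and 1 fell (3385 to 3729 CPM in CCI, against 7066 to 9306 CPM in control, but 1913 to 2176 CPM in CCI, against 2180 to 2322 CPM in control, without Snap25, the marker that fell). Of 5 microglia markers 1 rose and none fell, of 5 endothelial markers 2 rose and 1 fell, and of 4 choroid plexus and ependyma markers 1 rose and none fell. The choroid plexus and ependyma sum was 1974 to 2826 CPM in CCI, against 2691, 4064 and 275 CPM in control replicates 4, 5 and 6, so control replicate 6 stood apart there. Beside these marker counts, 27.0% of all tested genes were higher and 25.3% lower in CCI. None of the markers was at 0 in any library. Their part in the results was not tested, and in bulk tissue fewer cells of a type and less RNA per cell cannot be told apart.

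Per transcript length, on the deposited FPKM scale (counts scaled by gene length and library total), Slc1a2 was the most abundant member in all 6 libraries. It was followed by Glul and Slc1a3, whose FPKM ranges overlapped and whose order was Glul before Slc1a3 in CCI replicates 1 to 3 and control replicate 5, and the reverse in control replicates 4 and 6. Slc38a1 and then Slc38a2 followed in every library. The last 2 places were exchanged between the groups. Slc38a3 was above Slc1a1 in every CCI library, and Slc1a1 was above Slc38a3 in every control library.

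Slc1a1 encodes EAAC1 (EAAT3 in humans), a transporter of the neuronal cell body and dendrites that also brings in cysteine. It had 29.5, 29.8 and 44.0 CPM (counts scaled by library total with TMM, which corrects for composition) in CCI replicates 1 to 3, against 60.5, 71.7 and 67.1 CPM in control replicates 4 to 6. All CCI libraries lay below all control libraries, with CCI replicate 3 between its own group and the controls. The mean was 34.4 ± 8.30 CPM in CCI and 66.4 ± 5.65 CPM in control (SD, n = 3 each), a log2 fold change of -0.95 (SE 0.20, adjusted p = 0.00412, edgeR). On the FPKM scale, which is not corrected for the composition of the libraries, it had 4.46, 4.36 and 6.57 FPKM in CCI, against 6.59, 5.96 and 7.04 FPKM in control, and the groups overlapped. The difference kept its negative sign in all 18 alternatives and passed in 15, but not with scaling to library totals (-0.35, adjusted p = 0.176) or on the 2 FPKM scales, where log2(FPKM + 1) gave -0.31 (limma, adjusted p = 0.171). Slc1a1 overlaps Spata6l on the other strand, which had 407 counts in all 6 libraries together, and without a stated strand setting reads of the shared stretch cannot be assigned.

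Slc1a2 encodes GLT-1 (EAAT2), the main glutamate transporter of forebrain astrocytes. It lies on chromosome 2 from 102489004 to 102621129 (plus strand, ENSMUSG00000005089). Its level was 1199, 1396 and 1909 CPM in CCI, against 1512, 1501 and 1738 CPM in control. CCI replicate 3 was the highest of all libraries and CCI replicates 1 and 2 were the lowest, so the groups overlapped. The mean was 1501 ± 366 CPM in CCI and 1584 ± 134 CPM in control (SD, n = 3 each), with a log2 fold change of -0.08 (SE 0.25, adjusted p = 0.814, edgeR).

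Slc1a3 encodes GLAST (EAAT1), the other astrocytic uptake transporter, on chromosome 15 from 8663608 to 8740248 (minus strand, ENSMUSG00000005360). Its level was 256, 263 and 374 CPM in CCI, against 412, 381 and 372 CPM in control. CCI replicates 1 and 2 lay below every control library, and CCI replicate 3 lay just above control replicate 6. The mean was 298 ± 66.4 CPM in CCI and 388 ± 21.1 CPM in control (SD, n = 3 each), with a log2 fold change of -0.38 (SE 0.20, adjusted p = 0.143, edgeR). Without CCI replicate 3 the value was -0.58 and passed (adjusted p = 0.0470, edgeR).

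As shares of the summed FPKM of the 3 uptake transporters, Slc1a2 supplied 73.1%, 75.6% and 74.7% in CCI, against 67.4%, 68.2% and 71.9% in control. The share of Slc1a1 was 2.86%, 2.56% and 2.74% in CCI, against 4.29%, 5.19% and 4.41% in control. The groups did not overlap for either gene, with the Slc1a2 share higher and the Slc1a1 share lower in CCI. These shares are parts of the same sum, so they do not move independently. Lack of overlap is also common, as ratios of a member to any other tested gene did not overlap in 55.0% of cases. The Slc1a3 share overlapped, at 21.9% to 24.04% in CCI, against 23.7% to 28.3% in control.

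**Figure D1:**
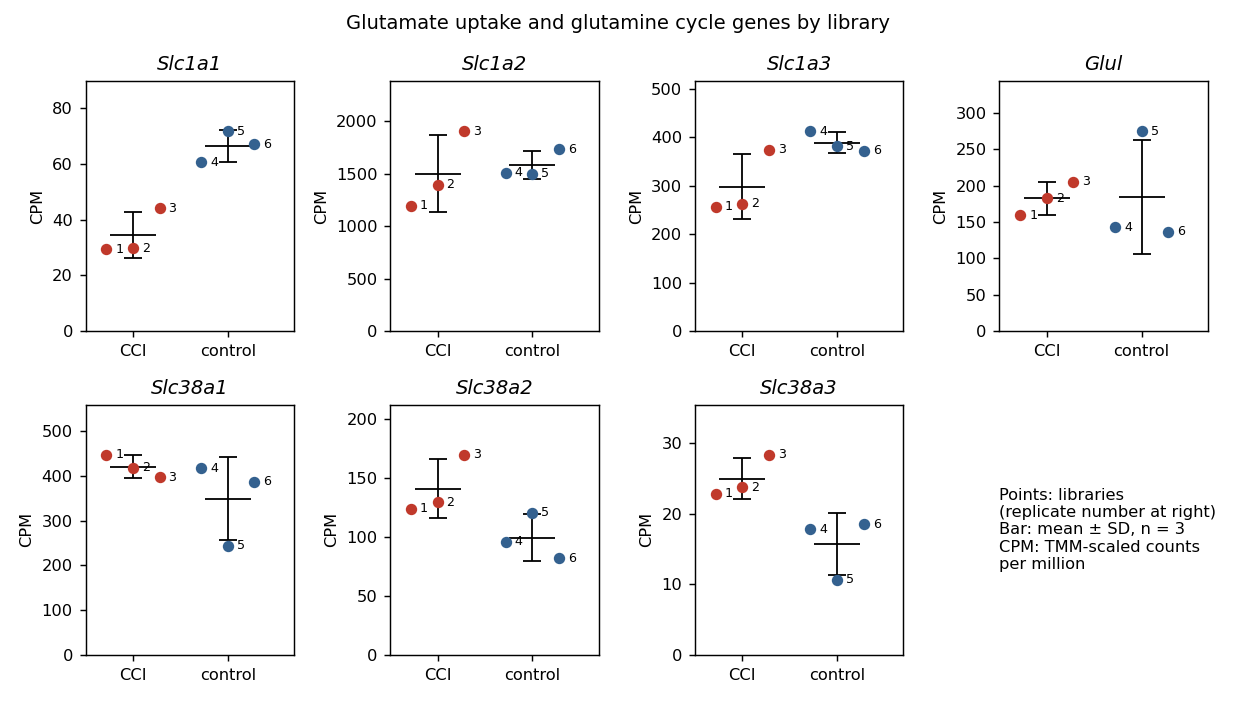
TMM-scaled CPM of the 7 genes on linear axes from 0, 1 panel per gene and 1 point per library with its replicate number, CCI left of control and bars for mean ± SD (n = 3). Slc1a1 was lower in every CCI library, Slc38a2 and Slc38a3 were higher in every CCI library, and the groups overlapped for the other 4 genes.

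Glul encodes glutamine synthetase, the enzyme that astrocytes and oligodendrocytes use to make glutamine, on chromosome 1 from 153775690 to 153785469 (plus strand, ENSMUSG00000026473). Its level was 159, 182 and 205 CPM in CCI, against 143, 275 and 136 CPM in control. Control replicate 5 was the highest library and control replicates 4 and 6 the lowest, with the CCI libraries between them. The mean was 182 ± 23.0 CPM in CCI and 185 ± 78.2 CPM in control (SD, n = 3 each), with a log2 fold change of -0.02 (SE 0.28, adjusted p = 0.964, edgeR). Without control replicate 5 Glul was higher in CCI by 0.36 on the log2 scale (adjusted p = 0.0349, edgeR). With all 6 libraries it was higher with library totals (0.63, adjusted p = 0.0344, edgeR) and with trends in length and mean expression (1.04, adjusted p = 0.0153, edgeR). The call thus moved with control replicate 5 and with the scaling. Glul passed in 6 of the 18 alternatives, each time as higher. On the FPKM scale it was 52.6, 58.4 and 66.9 in CCI, against 33.9, 49.8 and 31.2 in control, without overlap. Glul overlaps Teddm2 on the other strand, which had 211 counts in all 6 libraries together.

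Gls2, an enzyme of the opposite step, had 16.1, 17.8 and 16.6 CPM in CCI, against 16.7, 13.7 and 17.0 CPM in control. Its groups overlapped, with control replicate 5 the lowest library, and its log2 fold change was 0.09 (SE 0.18, adjusted p = 0.688, edgeR). It was higher in CCI with library totals (0.67, adjusted p = 0.0383, edgeR) and on log2(FPKM + 1) (0.57, adjusted p = 0.0279, limma), and its FPKM did not overlap, at 5.80, 6.20 and 5.90 in CCI, against 4.32, 2.71 and 4.23 in control.

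Slc38a3 encodes SNAT3 (SN1), which exchanges glutamine and sodium for protons and can run outward in astrocytes. Its level was 22.8, 23.7 and 28.4 CPM in CCI, against 17.8, 10.6 and 18.6 CPM in control. Every CCI library lay above every control library, and control replicate 5 was the lowest. The mean was 25.0 ± 2.96 CPM in CCI and 15.7 ± 4.38 CPM in control (SD, n = 3 each), a log2 fold change of 0.67 (SE 0.24, adjusted p = 0.0420, edgeR). The sign held in all 18 alternatives, and 9 of them passed. Among those that did not were DESeq2 size factors (0.61, adjusted p = 0.0527), length and GC trends (0.33, adjusted p = 0.159), and the fits without CCI replicate 1 (0.72, adjusted p = 0.0794), CCI replicate 2 (0.70, adjusted p = 0.0853), CCI replicate 3 (0.56, adjusted p = 0.138) or control replicate 4 (0.72, adjusted p = 0.0661), all by edgeR.

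Slc38a2 encodes SNAT2, a sodium-coupled carrier of small neutral amino acids that cells raise when amino acids run short. Its level was 124, 130 and 170 CPM in CCI, against 96.2, 121 and 81.9 CPM in control. The groups did not overlap, but CCI replicate 1 and control replicate 5 were close. The mean was 141 ± 25.0 CPM in CCI and 99.6 ± 19.6 CPM in control (SD, n = 3 each), with a log2 fold change of 0.50 (SE 0.20, adjusted p = 0.0635, edgeR), which did not pass. It passed in 7 of the 18 alternatives and was positive in all of them. Without control replicate 5 it was 0.65 (adjusted p = 0.00457, edgeR). It was smaller with the length trend (0.16, adjusted p = 0.507, edgeR). The same held without CCI replicate 3 (0.35, adjusted p = 0.215) and without control replicate 6 (0.37, adjusted p = 0.215), both by edgeR. Its FPKM was 17.5, 17.7 and 23.7 in CCI, against 9.79, 9.36 and 8.03 in control.

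Slc38a1 encodes SNAT1, the glutamine carrier of many neurons, and was the most abundant of the 3 SLC38 members. Its level was 447, 418 and 397 CPM in CCI, against 417, 244 and 386 CPM in control. Control replicate 5 was far below the other libraries, and the remaining libraries lay close together. The mean was 420.3 ± 25.3 CPM in CCI and 349 ± 92.5 CPM in control (SD, n = 3 each), with a log2 fold change of 0.27 (SE 0.23, adjusted p = 0.351, edgeR). As shares of the summed FPKM of the 3 SLC38 members, Slc38a1 supplied 48.3% to 58.5% in CCI and 47.4% to 63.7% in control, Slc38a2 supplied 31.7% to 40.4% in CCI and 26.3% to 45.8% in control, and Slc38a3 supplied 9.78% to 11.3% in CCI and 6.76% to 9.99% in control. The groups overlapped for each of these shares.

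On the TMM-scaled level 2 members lay wholly above and 1 wholly below the control libraries, and 4 overlapped. Of all tested genes 63.0% did not overlap. The scale matters for such counts. On the deposited FPKM, Glul, Slc38a1, Slc38a2 and Slc38a3 lay wholly above the control libraries, as 54.1% of all tested genes did. With limma on log2(FPKM + 1) 4 of the 7 members were higher and none was lower (also none at an unadjusted p of 0.05), beside 47.6% of all tested genes higher and 9.64% lower. Fold changes on that scale lay 0.51 (log2) above those with TMM scaling at the median of the genes in both fits. With edgeR on library totals the same 4 members were higher and none was lower, beside 45.4% of all genes higher and 9.72% lower.

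The set of members that passed moved with other choices too. With DESeq2 size factors in edgeR none was higher (1 at an unadjusted p of 0.05) and Slc1a1 was lower, beside 25.3% of all genes higher and 27.0% lower. With the stricter filter Slc38a2 and Slc38a3 were higher and Slc1a1 lower, beside 30.2% and 27.0%. A correction for a trend in gene length left Slc38a3 higher and Slc1a1 lower and brought Slc1a2 and Slc1a3 past the threshold as lower, beside 24.8% and 23.7%, and with GC content added none was higher (also none at an unadjusted p of 0.05) and Slc1a1 and Slc1a2 were lower, beside 24.3% and 22.9%. With trends in length and mean expression Glul (1.04, adjusted p = 0.0153) and Slc38a2 (0.73, adjusted p = 0.0171) were higher and Slc1a1 lower, beside 21.9% and 15.6%, and adding GC content gave the same 3 calls, beside 22.7% and 15.2%. Without CCI replicate 3 none was higher (also none at an unadjusted p of 0.05) and Slc1a1 (-1.17) and Slc1a3 (-0.58) were lower, beside 20.8% and 19.2%. Without control replicate 5 Glul, Slc38a2 and Slc38a3 were higher and Slc1a1 lower, beside 31.5% and 30.5%, all by edgeR.

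**Figure D2:**
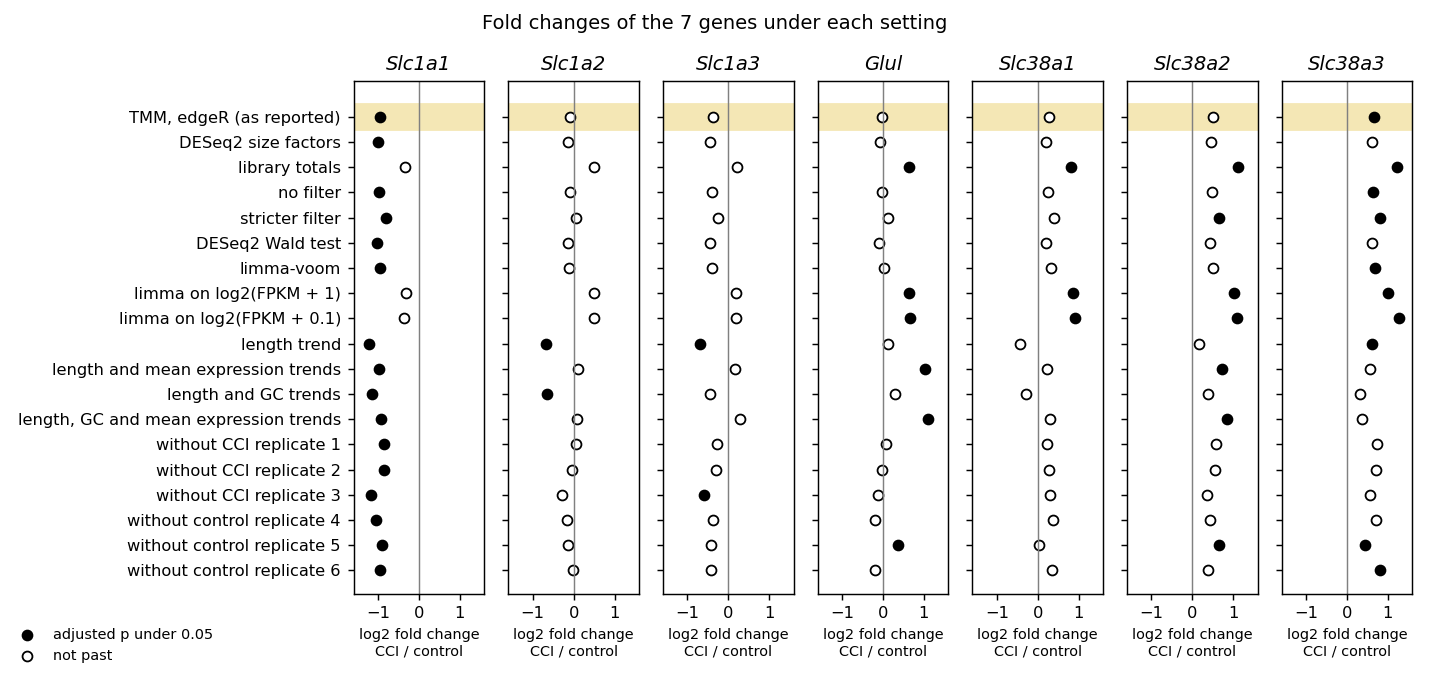
Log2 fold change (CCI over control) of each of the 7 genes under TMM scaling and under the 18 alternatives, 1 panel per gene and 1 row per setting, with filled points where the adjusted p was under 0.05. Slc1a1 stayed below 0 and Slc38a2 and Slc38a3 stayed above 0 in all of them, while Slc1a2, Slc1a3, Glul and Slc38a1 lay on both sides of 0.

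Ratios between members within a library do not depend on library scaling. They are not corrected for trends in gene length, GC content or mean expression, which shifted single members' fold changes as given above. The log2 ratio of 14 of the 21 pairs of members did not overlap between the groups, where ratios of a member to any other tested gene did not overlap in 55.0% of cases. The smallest two-sided p of an exact permutation test of 3 against 3 libraries is 0.10, and these 14 pairs had an adjusted p of 0.15 over the 21 pairs, so none passed. Slc1a1 was lower against all 6 other members, as it was against 59.1% of all other tested genes. The FPKM ratio of Slc1a1 to Slc1a3 was 0.119, 0.117 and 0.121 in CCI, against 0.152, 0.195 and 0.186 in control, a log2 difference of -0.57. The FPKM ratio of Slc1a1 to Slc38a3 was 0.824, 0.801 and 0.992 in CCI, against 2.17, 4.31 and 2.31 in control, a log2 difference of -1.68, the largest of the 21 pairs. Both ratios varied less among the CCI libraries than they differed from the control libraries.

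Several ratios of the astrocytic uptake transporters to the SLC38 carriers were lower in every CCI library, although none could pass the permutation test with 3 against 3 libraries. The FPKM ratio of Slc1a3 to Slc38a2 was 2.14, 2.097 and 2.28 in CCI, against 4.44, 3.27 and 4.70 in control, a log2 difference of -0.91. Slc1a3 differed from Slc38a1 by -0.71 and from Slc38a3 by -1.11, and Slc1a2 differed from Slc38a2 by -0.61 and from Slc38a3 by -0.81, all without overlap. Against all other tested genes, Slc1a3 was lower without overlap in 41.5% of cases and Slc1a2 in 29.6%. The ratio of Slc1a2 to Slc38a1 overlapped (-0.41). Glutamine synthetase relative to SNAT2, as the FPKM ratio of Glul to Slc38a2, was 3.002, 3.29 and 2.82 in CCI, against 3.46, 5.32 and 3.89 in control, a log2 difference of -0.45 without overlap. Against all other tested genes, Glul was lower without overlap in 24.4% of cases. With trends in length and mean expression the order turned, with log2 fold changes of 1.04 for Glul and 0.73 for Slc38a2 (edgeR). Against Slc38a1 (-0.25) and Slc38a3 (-0.66) the ratio of Glul overlapped.

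**Figure D3:**
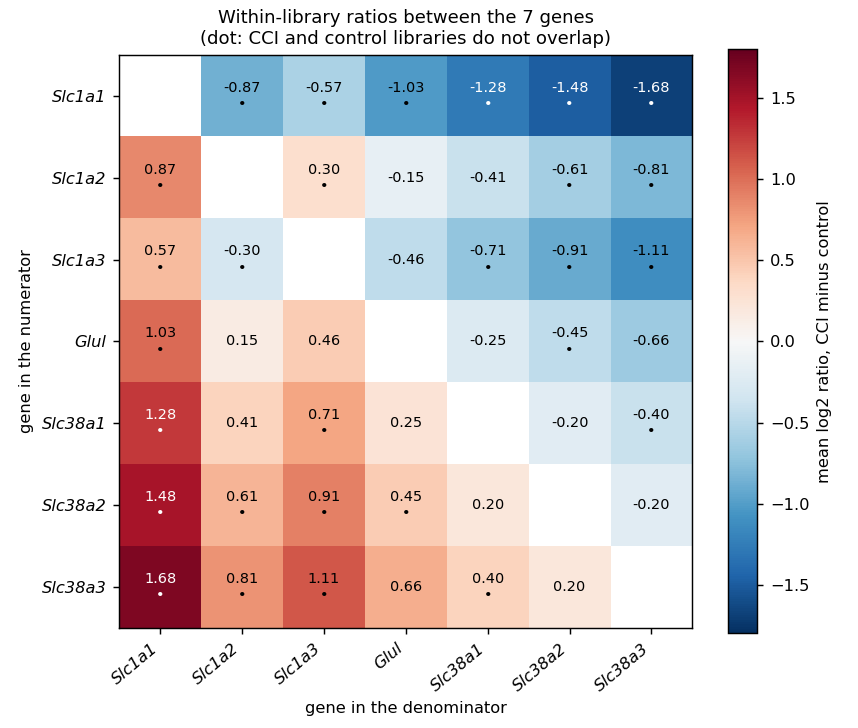
Log2 ratio difference (CCI minus control) for the 21 pairs of members, with the row gene over the column gene, colour for the difference and a dot where the groups did not overlap. The Slc1a1 row is negative throughout, from -0.57 against Slc1a3 to -1.68 against Slc38a3.

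Other genes of both transporter families were listed with earlier results of these data known, and the same holds for the lists below. Of 12 other SLC1 and SLC38 genes 11 were tested. Of these 4 were higher and 2 were lower, beside 27.0% and 25.3% of all tested genes. The other 5 did not pass, and the median log2 fold change was 0.18. Slc38a6, a less studied member of the SLC38 family, rose to 13.0 ± 0.323 CPM in CCI, against 3.22 ± 0.980 CPM in control (log2 fold change 2.03, adjusted p = 0.000657, edgeR). Slc1a5, the exchanger ASCT2 that carries glutamine and neutral amino acids, rose to 5.07 ± 1.01 CPM in CCI, against 1.47 ± 0.309 CPM in control (1.76, adjusted p = 0.00231, edgeR). Slc38a11 rose to 6.43 ± 2.04 CPM in CCI, against 1.59 ± 0.341 CPM in control (2.0, adjusted p = 0.00181, edgeR). Slc38a5, which encodes SNAT5, a second glutamine exchanger of the SNAT3 kind, fell to 3.58 ± 0.284 CPM in CCI, against 11.8 ± 3.73 CPM in control (-1.72, adjusted p = 0.00175, edgeR). These 4 genes were all at low levels, and each of them passed in the same direction in all alternatives run. Those were 18 for Slc38a6 and 17 for Slc1a5, Slc38a11 and Slc38a5, genes that the stricter filter left out. The smallest sizes were on log2(FPKM + 1) (1.197 for Slc38a6, 0.95 for Slc1a5, 1.10 for Slc38a11 and -0.80 for Slc38a5).

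Of 9 tested enzymes of glutamate and glutamine, 1 was higher and 4 were lower, beside 27.0% and 25.3% of all tested genes. The other 4 did not pass, and the median was -0.27. Glud1, glutamate dehydrogenase, fell to 142 ± 7.98 CPM in CCI, against 276 ± 9.88 CPM in control (-0.96, adjusted p = 0.00137, edgeR). Got1, the cytosolic aspartate aminotransferase, fell to 226 ± 53.5 CPM in CCI, against 579 ± 75.8 CPM in control (-1.35, adjusted p = 0.00166, edgeR). Bcat1, the cytosolic branched-chain aminotransferase, fell to 56.8 ± 6.69 CPM in CCI, against 116 ± 17.2 CPM in control (-1.03, adjusted p = 0.00170, edgeR). Aldh18a1, which makes proline from glutamate, fell to 11.3 ± 1.30 CPM in CCI, against 19.1 ± 4.78 CPM in control (-0.76, adjusted p = 0.0241, edgeR). With library totals and on both FPKM scales Glud1, Bcat1 and Aldh18a1 did not pass (log2(FPKM + 1) gave -0.35, -0.38 and -0.11). With trends in length and mean expression Got1 did not pass (-0.0234) and Glud1 turned sign (0.0246), and Aldh18a1 did not pass without any 1 of CCI replicates 1, 2 and 3 and control replicates 4 and 6 (adjusted p = 0.0538 to 0.0880, edgeR).

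Of 9 vesicular, exchange and mitochondrial glutamate carriers 3 were higher and 3 were lower, beside 27.0% and 25.3% of all tested genes. The other 3 did not pass, and the median was -0.33. Slc7a11, the xCT subunit that exports glutamate in exchange for cystine, rose to 87.1, 76.4 and 82.8 CPM in CCI, against 39.1, 45.9 and 35.5 CPM in control (log2 fold change 1.03, SE 0.16, adjusted p = 0.00104, edgeR). Slc17a6, the vesicular transporter VGLUT2 of thalamic neurons, fell to 276 ± 82.9 CPM in CCI, against 731 ± 16.1 CPM in control (-1.41, adjusted p = 0.00226, edgeR). Slc25a13, a mitochondrial aspartate-glutamate carrier, rose to 8.88 ± 2.42 CPM in CCI, against 2.41 ± 0.671 CPM in control (1.86, adjusted p = 0.00191, edgeR), and Slc25a18, a mitochondrial glutamate carrier of astrocytes, fell to 56.1 ± 8.36 CPM in CCI, against 97.7 ± 20.3 CPM in control (-0.80, adjusted p = 0.0104, edgeR). Slc7a11 and Slc25a13 passed in the same direction in all alternatives run. Slc7a11 had 0.41 under the length trend (adjusted p = 0.0381, edgeR) to 1.64 with library totals. Slc25a13 had 1.33 on log2(FPKM + 1) to 2.43 with library totals, over 17 alternatives, as the stricter filter left it out. Slc17a6 did not pass with trends in length and mean expression (-0.46, adjusted p = 0.142), and Slc25a18 did not pass with library totals (-0.24), on the FPKM scales or with the length trends, and turned sign where mean expression was added (0.0417). Slc17a6 is a neuronal gene, and it fell beside 5 of the 6 paraventricular thalamus markers given above, whose part in its value was not tested.

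Uptake is driven by the sodium and potassium gradients of astrocytes. Of 7 genes that maintain these gradients 2 were higher and 3 were lower, beside 27.0% and 25.3% of all tested genes. The other 2 did not pass, and the median was -0.01. The potassium channel genes Kcnj16 and Kcnj10 fell, Kcnj16 to 15.7 ± 0.945 CPM in CCI, against 74.1 ± 11.2 CPM in control (-2.24, adjusted p = 0.000158, edgeR), and Kcnj10 to 102 ± 2.02 CPM in CCI, against 186 ± 28.6 CPM in control (-0.87, adjusted p = 0.00298, edgeR). Atp1b2, the sodium pump subunit AMOG, fell to 140 ± 19.6 CPM in CCI, against 389 ± 133 CPM in control (-1.47, adjusted p = 0.00267, edgeR). Slc4a4, the sodium bicarbonate cotransporter NBCe1, rose to 164 ± 5.71 CPM in CCI, against 114 ± 8.04 CPM in control (0.52, adjusted p = 0.0174, edgeR). Kcnj16 passed in the same direction in all alternatives run (-2.35 to -1.45), while Kcnj10 and Atp1b2 did not pass on the FPKM scales (-0.25 and -0.80 on log2(FPKM + 1)) or with mean expression trends, and Kcnj10 did not pass with library totals either (-0.26, adjusted p = 0.143, edgeR). Slc4a4 turned sign with the length trend (-0.0026) and was no longer called when CCI replicate 1, CCI replicate 2 or control replicate 6 was left out (0.46 to 0.53, adjusted p = 0.0666 to 0.0845, edgeR).

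Of 8 tested regulators of the transporters or of glutamine synthetase 4 were higher and 2 were lower, beside 27.0% and 25.3% of all tested genes. The other 2 did not pass, and the median was 0.65. Arl6ip5 encodes GTRAP3-18, a protein that binds EAAC1 and reduces its uptake activity, and it fell together with Slc1a1, to 93.4 ± 3.96 CPM in CCI, against 224 ± 13.9 CPM in control (-1.26, adjusted p = 0.000385, edgeR). Yy1, a transcription factor reported to repress Slc1a2, rose to 46.9 ± 3.68 CPM in CCI, against 25.5 ± 4.48 CPM in control (0.88, adjusted p = 0.00370, edgeR). Crbn, the cereblon subunit of a ubiquitin ligase that acts on glutamine synthetase protein, fell to 35.1 ± 1.94 CPM in CCI, against 118 ± 3.91 CPM in control (-1.75, adjusted p = 0.000175, edgeR). Ajuba, a LIM protein that binds GLT-1, rose to 2.92 ± 0.730 CPM in CCI, against 0.692 ± 0.383 CPM in control (2.12, adjusted p = 0.00632, edgeR). Arl6ip5 did not pass with trends in length and mean expression (-0.17, adjusted p = 0.498, edgeR). The other 3 named regulators passed in all alternatives run (Yy1 at 0.74 to 1.49, Crbn at -1.92 to -1.03 and Ajuba at 0.78 to 2.73). For Ajuba those were 17, as the stricter filter left it out.

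Beside 27.0% of all tested genes higher and 25.3% lower, 3 of 10 astrocyte markers were higher, 3 lower and 4 did not pass. The markers had a median of 0.00. Their summed level was 2370 to 2803 CPM in CCI, against 6518 to 9387 CPM in control, of which the glycolytic enzyme Aldoc made up 40.2% to 47.6% in CCI and 66.5% to 75.0% in control. Aldoc fell (-2.26, adjusted p = 0.000453, edgeR), and without it the sum was 1404 to 1468 CPM in CCI, against 1685 to 3149 CPM in control. Gjb6, a gap junction gene, also fell (-2.36, adjusted p = 0.000239, edgeR). Gfap, the intermediate filament of reactive astrocytes, rose to 274 ± 22.4 CPM in CCI, against 119 ± 51.9 CPM in control (1.198, adjusted p = 0.0115, edgeR), and the water channel Aqp4 rose to 180 ± 17.1 CPM in CCI, against 98.4 ± 18.5 CPM in control (0.87, adjusted p = 0.00497, edgeR). Over the alternatives, in all of which these 4 markers passed, Aldoc ranged over -2.41 to -0.89, Gjb6 over -2.57 to -1.09, Gfap over 0.90 to 2.13 and Aqp4 over 0.73 to 1.505. These markers were named for the smallest p in the list, and the 4 that did not pass had -0.32 to 0.25. The astrocytic members Slc1a2, Slc1a3 and Glul had -0.38 to -0.02, and Slc38a3, also astrocytic, had 0.67. The part of astrocyte number in the members' values was not tested.

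**Figure D4:**
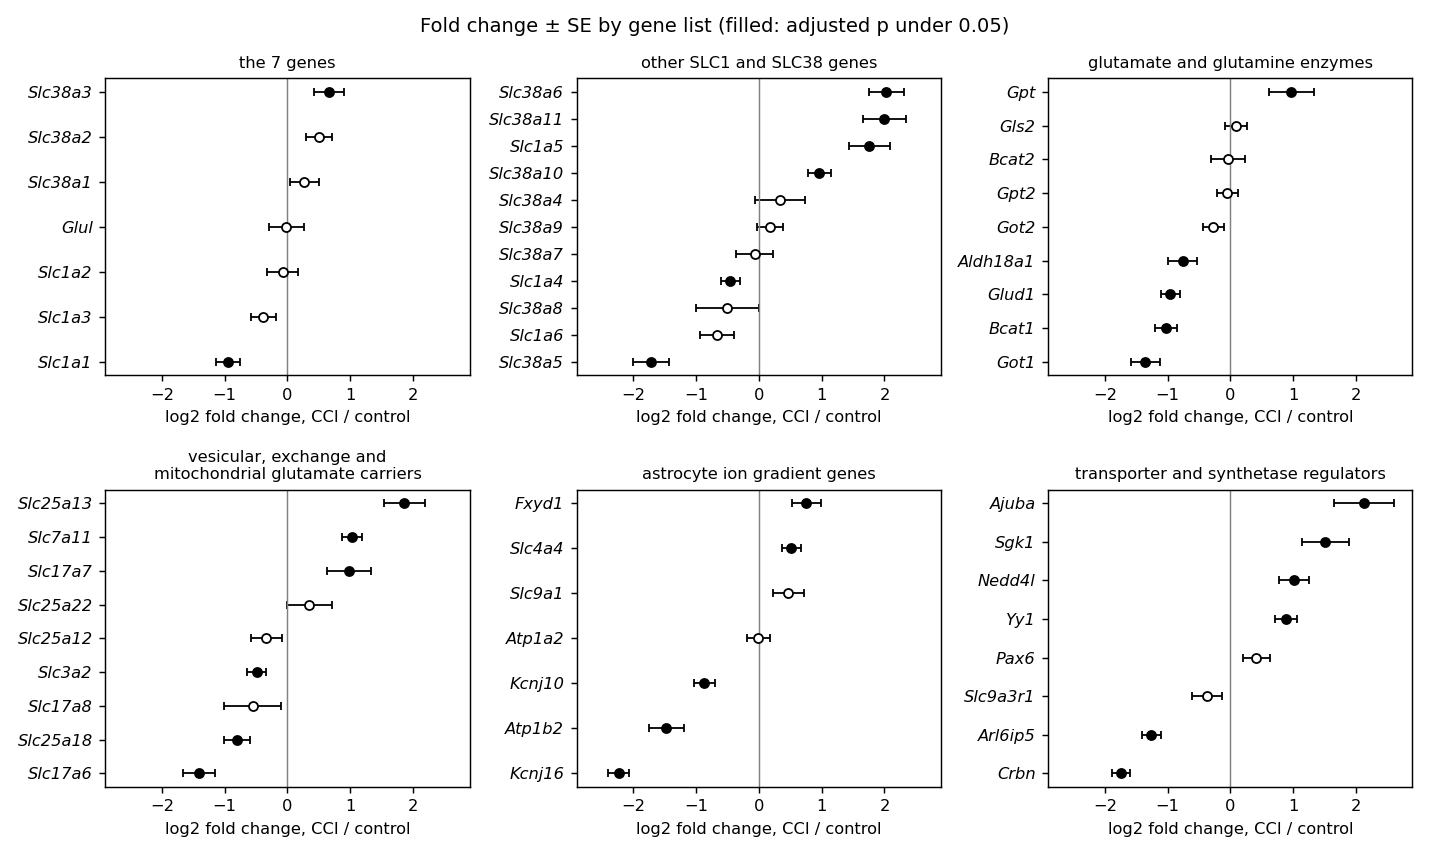
Log2 fold change (CCI over control) with its SE for each tested gene of 6 lists, 1 panel per list, with filled points where the adjusted p was under 0.05. The members span -0.95 to 0.67, a narrower span than the other SLC1 and SLC38 genes, which reach 2.03 and -1.72.

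The genes whose pattern over the 6 libraries was most like each member's were taken by Pearson's r of log2 CPM among 9748 other genes of at least 10 CPM on average, as a description only. They were Psme3 (r = 0.997), Selenow (0.997) and Zfp143 (0.996) for Slc1a1, Slc24a3 (0.956), Kif5c (0.955) and P2ry12 (0.950) for Slc1a2, and Tspan5 (0.971), Lgi1 (0.969) and Shld1 (0.969) for Slc1a3. For Glul they were Amot (0.992), Cab39 (0.990) and Prrg1 (0.988). For Slc38a1 they were Taf3 (0.997), Tada3 (0.994) and Rbsn (0.993), for Slc38a2 Senp3 (0.993), Rubcn (0.988) and Serinc5 (0.987), and for Slc38a3 Evi5l (0.998), Esrra (0.998) and Grin1 (0.998). No member was among the genes compared, and the 6 points share their group difference and library scaling.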

How the data were processed

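RNA from 3 CCI and 3 control libraries was sequenced after poly-T selection and random priming, per the labels' protocols. The tools in the submitters' processing notes are HISAT2 2.1.0 and HTSeq 0.9.1, with fastp 0.22.0, StringTie 2.2.1 and DESeq 1.38.3, and the genome build is GRCm39. A strand setting is not given in the sources used here. The deposited table gives a read count and an FPKM value per gene and library, per the file headers. The deposited FPKM equalled the count divided by gene length and column total, within a relative difference of 1.26e-07. Groups came from the labels.

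The count test was edgeR 4.0.16 under R 4.3.3 (TMM, filterByExpr, quasi-likelihood F-test) over 14259 genes, with Benjamini-Hochberg adjustment and a threshold of 0.05. TMM factors ranged over 1.21 to 1.25 (CCI) and 0.686 to 0.900 (control). SE was taken as log2 fold change over the square root of F. Alternatives used DESeq2 1.42.0 (size factors, Wald test), limma 3.58.1 (voom, and log2 of FPKM plus 1 or 0.1), library totals, no filter, a filter of at least 10 CPM in 3 libraries, spline trends (5 degrees of freedom) in gene length and mean expression, and each library left out. The 2 alternatives with GC content, from GENCODE M21 by Ensembl identifier for 14241 tested genes (99.9%), were chosen after seeing the data. Ratios and promoters were computed in Python 3.11.15 with scipy 1.17.1.

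The members and lists were chosen with earlier results of these data known. The naming rule took every member, Gls2, up to 4 genes per list by smallest unadjusted p, and 3 genes most like each member. Marker genes are named for the astrocyte list, and the other marker lists are given by counts and sums. Snap25, Neurod6 and Prox1 are named for their part in a sum, and Tbr1 and Fezf2 for their low level. An item of the naming rule is not reported here. Of the listed genes, Slc1a7 did not pass the filter, Pc was not matched by symbol, and Nherf1 is in the table under its older symbol Slc9a3r1, which was tested. In simulated counts of 14259 genes with 200 changed, the edgeR fit of CCI against control recovered 51.0% of 2-fold and 97.1% of 4-fold changes. It made 5 false calls there, and 0 calls in simulated counts with no change. In the data 52.3% of tested genes passed, far more than were changed in the simulation. The simulation also gave every gene the same dispersion (spread beyond counting noise). Apart from the changed genes, it held no difference in composition between the groups. These rates therefore describe the simulated setting only, and the rates with so many genes changed were not tested.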

Additional observations from a re-analysis of the deposited data

How the results depend on the processing

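Over the 7 members and 18 alternatives, 75 of 126 values kept their sign and their side of the threshold, 14 came to pass with the same sign, 12 no longer passed and 25 turned sign. Those 25 were all of members that had not passed, and 6 of them, all of Glul, came to pass, so that 20 values came to pass in all. The cause of these shifts was not tested. Of all tested genes, 6477 were higher and 1386 lower with library totals, 6785 and 1374 with log2(FPKM + 1), and 6632 and 1345 with log2(FPKM + 0.1), and 2229 were lower with length and mean expression trends and 2166 with GC added. Leaving out 1 library gave 2881 to 4560 higher and 2630 to 4415 lower. Members higher were 0 with DESeq2 size factors and the DESeq2 Wald test (1 each at an unadjusted p of 0.05) and 0 with length and GC trends in edgeR (also 0 unadjusted), 2 with the stricter filter and with mean expression trends, with or without GC, 4 with library totals and both FPKM scales, and 0 to 3 without 1 library. Members lower were 0 with library totals (edgeR) and both FPKM scales (limma), also 0 unadjusted, 3 with the length trend, 2 with length and GC trends, and 1 to 2 without 1 library. Beside these counts, 23.4% of all genes were higher and 25.3% lower with the DESeq2 Wald test. The shares were 46.5% and 9.43% with log2(FPKM + 0.1). Without 1 library 20.0% to 31.5% of all genes were higher and 18.2% to 30.5% lower. Sign turned for Slc1a2 with library totals (0.51), the stricter filter (0.0590), log2(FPKM + 1) (0.49), log2(FPKM + 0.1) (0.50), length and mean expression trends (0.11), the same with GC (0.0890) and without CCI replicate 1 (0.0585; -0.29 to 0.0585 over the 6 fits without 1 library), and for Slc1a3 with library totals (0.20), the FPKM scales (0.19 and 0.20) and the mean expression trends (0.16, and 0.28 with GC). Glul turned with library totals (0.63), the stricter filter (0.12), limma-voom (0.0321), the FPKM scales (0.64 and 0.65), the length trend (0.13, and 0.30 with GC), the mean expression trends (1.04, and 1.10 with GC), without CCI replicate 1 (0.0692) and without control replicate 5 (0.36; -0.21 to 0.36 without 1 library). Slc38a1 turned with the length trend (-0.43, and -0.29 with GC). Of the other named genes Gls2 turned without control replicate 5 (-0.0222; -0.0222 to 0.14), Glud1 (0.0246, and 0.20 with GC) and Slc25a18 (0.0417, and 0.0284 with GC) with the mean expression trends, and Slc4a4 with the length trend (-0.0026). No paired analysis was possible because the CCI and control libraries share no replicate number.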
